A study of Mus musculus with 6 samples.

Results

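The chemoattractant receptors described here are those for the complement fragment C5a (C5ar1), leukotriene B4 (Ltb4r1), platelet-activating factor (Ptafr) and formylated bacterial peptides (Fpr1 and Fpr2). They were chosen by name: 5 genes, each read from the probe set that carries exactly 1 gene symbol and has the highest mean over all 6 arrays. Of the 5, C5ar1, Ltb4r1 and Ptafr had such a probe set, and all 3 passed a filter that left out the dimmest 30% of genes, among 19938 genes with a probe set of their own and 13956 that passed. Fpr1 and Fpr2 are not analysed here. The samples were 1 Affymetrix whole-transcript array for each of 6 male C57BL6 mice, 4 weeks old, of which 3 were wild type and 3 carried a MYB knockdown. The cells, labelled K11bL, were sorted from bone marrow by their Kit and CD11b (Itgam) and a low lineage stain. The labels call the 6 samples different mice, do not state how Myb was knocked down, and give no treatment; the series title speaks of myeloproliferative cells. Values are the authors' log2 values per probe set, so a difference of 1 is a change of 2-fold, and differences are always knockdown minus wild type.

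These receptors belong to the rhodopsin-like family of G protein-coupled receptors and signal in leukocytes mainly through Gi proteins, whose released beta-gamma subunits activate phospholipase C beta and phosphoinositide 3-kinase gamma. Ligand binding makes neutrophils, monocytes and eosinophils crawl up a gradient, release granules and produce oxidants, and the receptors appear and rise on the cell surface as granulocytes and monocytes mature in the marrow. G protein-coupled receptor kinases, arrestins and RGS proteins then switch the signal off.

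The 2 members whose level fell and Ptafr, which did not, are set beside the sequence just upstream of their transcription start, because the perturbed gene encodes a DNA-binding factor. Myb proteins bind sites with the core AACNG (on the other strand CNGTT). Windows of 250 bases before the start used were taken from RefSeq on build GRCm38.p6 and written 5′ to 3′ along the gene. In them this core had no match at C5ar1, 1 at Ltb4r1 and 4 at Ptafr, of which 2 overlap. At C5ar1 only 48 of the bases lie outside the annotated gene and 202 lie inside it, unlike at Ltb4r1 and Ptafr. Its counts of matches, here and below, are therefore not like theirs. Of 27025 genes with such a window, 74.1% held at least 1 match on either strand, and the median was 1. The window of C5ar2, a related receptor that also fell (below), held 3. How much of that window lies inside the annotated gene is not given here. The windows printed are chr14:55765712-55765961 on the plus strand for Ltb4r1 and chr4:132563817-132564066 on the plus strand for Ptafr. Of the C5ar1 window, on the minus strand, only the 48 bases outside the annotated gene, chr7:16259541-16259588, are shown. Capitals mark the matches to the Myb core.
C5ar1: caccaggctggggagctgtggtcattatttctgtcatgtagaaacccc
Ltb4r1: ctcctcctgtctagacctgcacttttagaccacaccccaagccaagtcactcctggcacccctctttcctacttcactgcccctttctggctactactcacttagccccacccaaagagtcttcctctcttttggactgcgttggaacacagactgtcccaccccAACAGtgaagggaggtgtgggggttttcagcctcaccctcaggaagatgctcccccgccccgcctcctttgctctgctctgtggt
Ptafr: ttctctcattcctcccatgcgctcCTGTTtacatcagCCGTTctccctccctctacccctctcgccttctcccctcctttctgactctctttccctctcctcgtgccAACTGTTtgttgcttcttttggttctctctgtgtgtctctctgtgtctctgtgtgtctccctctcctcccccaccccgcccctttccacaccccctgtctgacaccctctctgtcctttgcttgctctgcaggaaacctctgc
A match describes letters and is not a site of binding. The letters GAGGAA (on the other strand TTCCTC), 1 form of site with the ETS core GGAA, had a match in 23.1% of the windows. They had 1 match at Ltb4r1, 1 at Ptafr and none at C5ar1, and other sites with GGAA were not counted. The letters TTGCNNNAA (TTNNNGCAA), with 3 free bases, were found in 8.28% of the windows and had no match at any of the 3. This string does not cover C/EBP sites with 2 free bases there, which were not counted. Whether the windows hold C/EBP sites was therefore not tested. C5ar1 lies next to C5ar2, and Ltb4r1 next to Ltb4r2, in the RefSeq gene order.

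The array medians lay between 5.87 and 5.99, and knockdown mouse 3 stood apart, with correlations over all probe sets of 0.977 and 0.984 with the other knockdown arrays against 0.994 between those 2. Myb differed by -0.30 ± 0.06 (standard error of the fit, SE; adjusted p = 0.0196, limma), with wild type values of 11.47, 11.46 and 11.46 and knockdown values of 11.26, 11.08 and 11.14. The adjusted p of Myb lay between 0.0777 and 0.0963 when knockdown mouse 2 or a wild type mouse was left out, and was 0.074 after median centring (-0.23) and 0.0662 in eBayes without trend. Of the sorting markers, Kit was not called (-0.27 ± 0.08, adjusted p = 0.06), nor was Itgam (-0.39 ± 0.17, adjusted p = 0.202). Kit passed when knockdown mouse 3 was left out (adjusted p = 0.0145), after quantile normalization (0.0405), with the dimmest 50% of genes filtered out (0.0497) and with array weights (0.00423), over a range of alternatives up to 0.264. Itgam passed when knockdown mouse 1 was left out (-0.59, adjusted p = 0.0239) and with array weights (-0.30, adjusted p = 0.0318), over a range up to 0.448. Over all 13956 genes 11.6% passed an adjusted p of 0.05, with 6.12% higher and 5.48% lower in the knockdown, and the 2 groups did not overlap for 34.3%. With each array centred on its median, the counts were 1433 higher and 593 lower, against 854 and 765 with the values as deposited.

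C5ar1 (gene ID 12273, probe set 10560242) encodes the main receptor of C5a, the fragment that complement activation releases. It gave values of 7.26, 7.59 and 7.51 in wild type mice 1, 2 and 3 and of 5.93, 5.33 and 5.94 in knockdown mice 1, 2 and 3. Every knockdown mouse lay below every wild type mouse, and knockdown mouse 2 was the lowest. Wild type mice averaged 7.45 ± 0.17 and knockdown mice 5.73 ± 0.35 (SD, n = 3 each). C5ar1 thus fell by 1.72 ± 0.18 (SE), or 3.29-fold, with a 95% confidence interval from -2.13 to -1.31 and an adjusted p of 0.000693 in limma's fit over all genes. By size of the fall it was number 75 of the 13956 genes tested. In a sorted bulk sample, fewer cells that carry a transcript and less transcript per cell cannot be told apart.

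Ltb4r1 (gene ID 16995, probe set 10415392) encodes BLT1, the high-affinity receptor of leukotriene B4, a lipid that draws granulocytes into tissue. Its wild type values were 8.58, 8.38 and 8.39, and its knockdown values were 7.71, 7.48 and 7.87. The groups did not overlap, and knockdown mouse 2 was again the lowest. From 8.45 ± 0.11 (SD, n = 3) to 7.69 ± 0.19 (SD, n = 3), Ltb4r1 fell by 0.76 ± 0.13 (SE), or 1.70-fold, with a 95% confidence interval from -1.05 to -0.47 (adjusted p = 0.00657, limma).

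Ptafr (gene ID 19204, probe set 10508734) encodes the receptor of platelet-activating factor, a phospholipid mediator made by many myeloid cells. Its values were 7.78, 7.77 and 7.75 in wild type and 8.14, 7.93 and 8.32 in knockdown. Here too the groups did not overlap, but the knockdown mice lay above the wild type mice, which differed by only 0.03 among themselves. The difference was 0.37 ± 0.12 (SE), or 1.29-fold, with a 95% confidence interval from 0.09 to 0.64, and did not pass the test (adjusted p = 0.0909 and unadjusted p = 0.0148, limma). Without knockdown mouse 3, the highest, it was smaller at 0.27 but passed (adjusted p = 0.039), and it also passed after median centring of the arrays (0.44, adjusted p = 0.0479) and with array weights (0.25, adjusted p = 0.036). Over 15 alternatives its adjusted p ranged from 0.036 to 0.271.

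**Figure D1:**
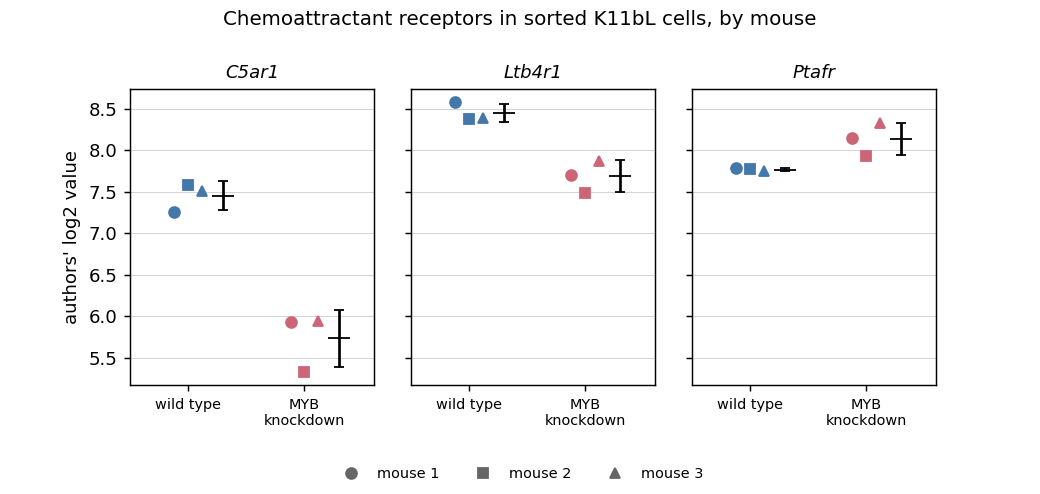
The authors' log2 values of C5ar1, Ltb4r1 and Ptafr in each of the 3 wild type and 3 MYB knockdown mice, with the mean and SD of each group as a bar beside the points; the same symbol in both groups does not mean a paired animal. C5ar1 and Ltb4r1 were lower in every knockdown mouse than in every wild type mouse, and Ptafr was higher in every knockdown mouse (adjusted p = 0.0909, not called).

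So 2 of the 3 measured receptors fell and Ptafr did not pass the test, beside 5.48% of all genes that fell. All 3 were without overlap between the groups, as were 34.3% of all genes. The falls of C5ar1 and Ltb4r1 passed in each of 15 alternatives, with differences from -1.95 to -1.52 and from -0.85 to -0.66. The highest adjusted p was 0.00674 for C5ar1, without wild type mouse 2, and 0.0467 for Ltb4r1, without wild type mouse 1. None of the 3 lay under the lower quartile of its array in any mouse.

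**Figure D2:**
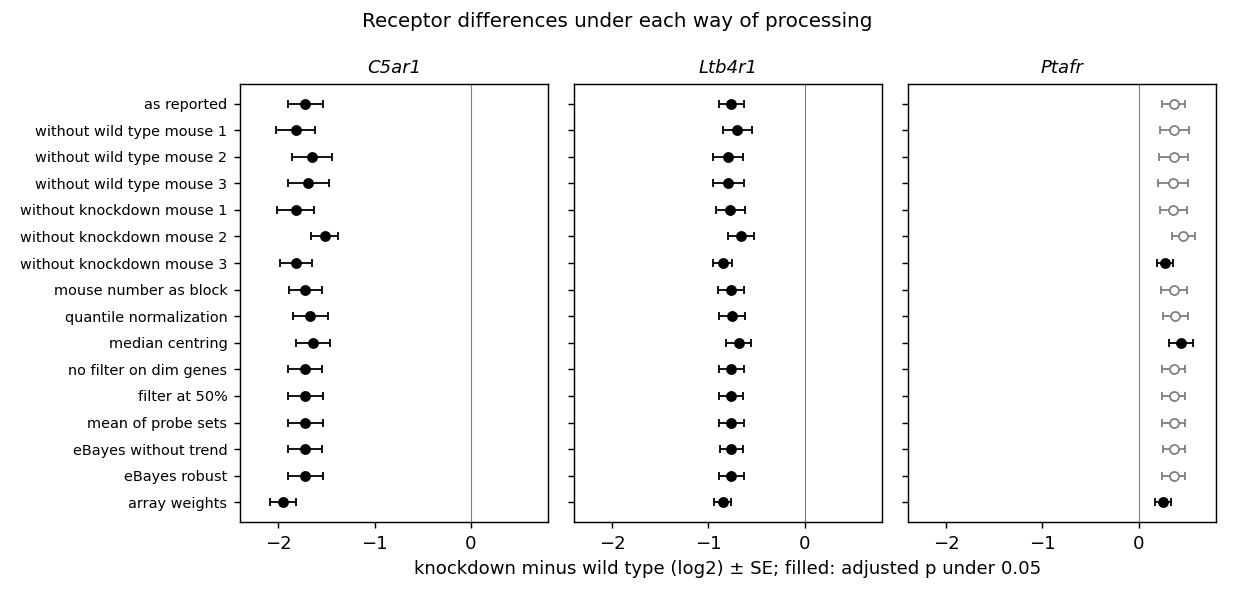
Difference (knockdown minus wild type, log2) with its SE for C5ar1, Ltb4r1 and Ptafr as reported and under 15 alternatives, with filled points where the adjusted p was under 0.05. C5ar1 and Ltb4r1 stayed below 0 and filled in every row, while Ptafr stayed above 0 and was filled without knockdown mouse 3, after median centring and with array weights.

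The size of the change differed between receptors on the same arrays, a comparison that a constant added to all log2 values of an array leaves unaltered. The log2 value of C5ar1 minus that of Ptafr was -0.52, -0.19 and -0.24 in wild type mice and -2.22, -2.60 and -2.38 in knockdown mice, a shift of -2.08. For Ltb4r1 minus Ptafr the shift was -1.13, from 0.80, 0.61 and 0.64 to -0.44, -0.45 and -0.46, so this difference varied little among the knockdown mice (SD 0.0076) although each gene varied more. C5ar1 also shifted against Ltb4r1, by -0.96. In each of these comparisons, and in that of C5ar1 with C5ar2 below, the groups did not overlap. For those with Ptafr this was fixed beforehand, since C5ar1 and Ltb4r1 lay lower and Ptafr higher in every knockdown mouse. Their p-values below are therefore no separate support. The exact permutation test, two-sided, gave p = 0.1 for each of the 4, and 0.1 adjusted over them, which is the smallest value that 3 against 3 mice allow.

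Among the nearest relatives of these receptors, the second receptor of C5a moved with the first. C5ar2, which binds C5a and signals through arrestins and not through G proteins, had values of 7.33, 7.28 and 7.20 in wild type and 6.70, 6.26 and 6.67 in knockdown. It fell by 0.73 ± 0.13 (SE), or 1.66-fold (adjusted p = 0.011, limma), a call that was lost without wild type mouse 1 (adjusted p = 0.064) or 2 (0.0586). C5ar1 shifted by 0.99 more than C5ar2 within the arrays (-0.99). C3ar1, the receptor of the companion fragment C3a, lay the other way. Its wild type values of 6.21, 5.29 and 4.95 were widely spread and its knockdown values were 6.87, 6.26 and 6.60. The difference of 1.09 ± 0.30 missed the threshold (adjusted p = 0.0513, limma), and it passed without wild type mouse 1, the highest of its group (1.46, adjusted p = 0.00854), without knockdown mouse 3 (1.08, adjusted p = 0.0355), and after quantile normalization (adjusted p = 0.0386), median centring (0.0387) or array weights (0.00936). Over its 14 alternatives the adjusted p of C3ar1 ranged from 0.00486 to 0.193.

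Of the 13 related receptors listed, 11 had a probe set of their own and 6 passed the filter. C5ar2 fell and the other 5 were not called, with a median difference of -0.04 over the 6, beside 0.02 over all genes tested. Ccrl2, an atypical chemerin-binding receptor, differed by 0.47 ± 0.17 (adjusted p = 0.127). Cysltr1, a receptor of cysteinyl leukotrienes, differed by -0.17 ± 0.11 (adjusted p = 0.423). Cysltr2, another such receptor, was dim, did not pass the filter and was not tested. Its values were 4.63, 4.45 and 4.56 in wild type and 5.69, 5.51 and 4.76 in knockdown. The formyl peptide receptor relatives Fpr-rs4, Fpr-rs6 and Fpr-rs7 lay under the lower quartile of the array in all 6 mice, and Fpr-rs3 had values between 4.69 and 5.12. None of these 4 passed the filter. Ltb4r2, the low-affinity leukotriene B4 receptor, and Fpr3 are not analysed here.

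On the ligand side, the last enzyme of leukotriene B4 synthesis fell together with the receptor Ltb4r1. Lta4h, the hydrolase that turns leukotriene A4 into B4, had values of 11.41, 11.25 and 11.36 in wild type and 10.80, 10.36 and 10.27 in knockdown. It fell by 0.86 ± 0.13 (SE), or 1.82-fold (adjusted p = 0.0045, limma), and passed in each of 15 alternatives. Alox5 and Alox5ap, the lipoxygenase and its activating protein that act before it, were not called. Alox5ap differed by 0.11 ± 0.07 (adjusted p = 0.367). Alox5 was spread over 9.20, 8.51 and 9.60 in the knockdown mice, across the wild type values of 9.16, 9.40 and 9.33, and its difference of -0.20 ± 0.24 (adjusted p = 0.693) became 0.10 without knockdown mouse 2; with array weights it was -0.55 and passed (adjusted p = 0.0129).

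**Figure D3:**
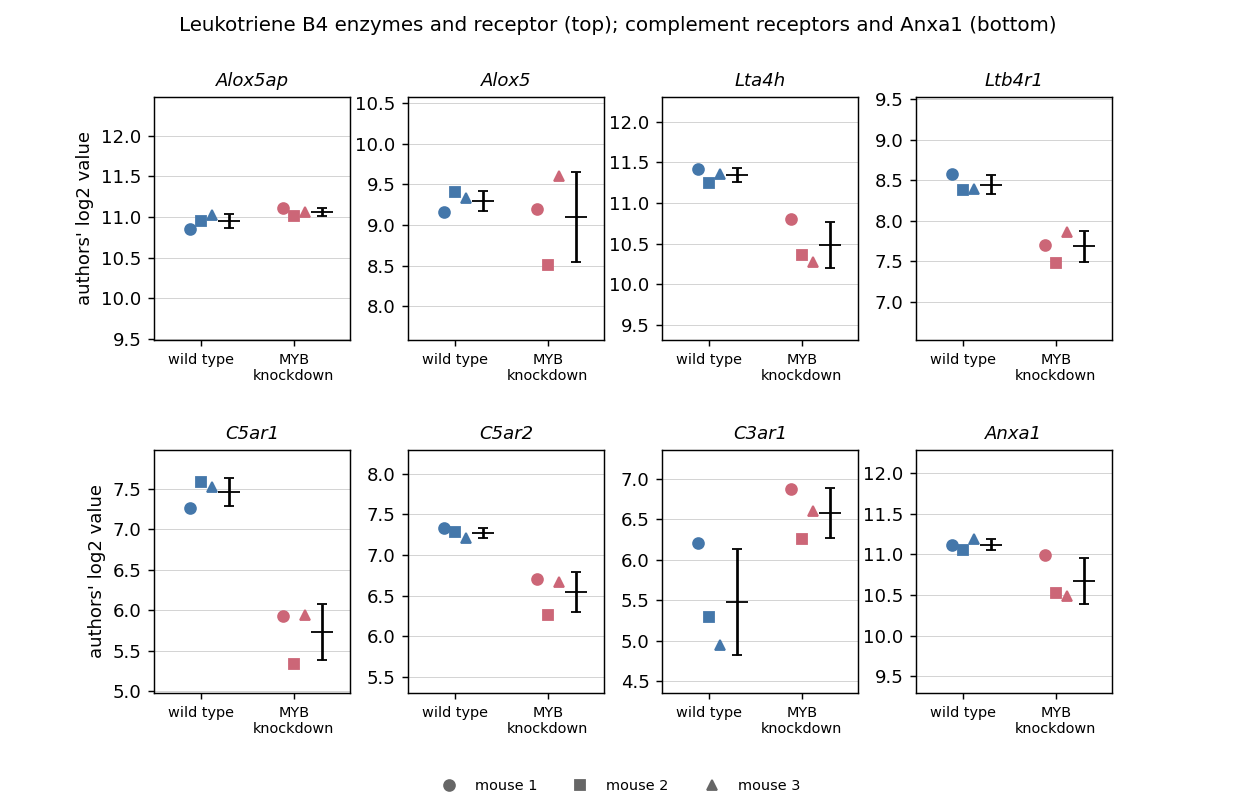
The authors' log2 values by mouse for the genes of leukotriene B4 synthesis with its receptor (top row) and for 3 complement receptors and Anxa1 (bottom row), with the mean and SD of each group; every panel spans the same 3 log2 units. Lta4h, Ltb4r1, C5ar1 and C5ar2 fell, and Alox5ap, Alox5, C3ar1 and Anxa1 were not called.

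Of ligands of the formyl peptide receptors, Camp, the cathelicidin of neutrophil granules, fell from 12.12, 12.18 and 12.05 to 9.74, 8.03 and 8.49, a difference of -3.36 ± 0.36 (adjusted p = 0.000794, limma). Anxa1, the annexin whose peptides act on Fpr2, had values of 11.12, 11.06 and 11.19 in wild type and 10.99, 10.53 and 10.49 in knockdown. All knockdown mice were lower, but the difference of -0.45 ± 0.13 did not pass (adjusted p = 0.0595), while it passed without knockdown mouse 1 (-0.61, adjusted p = 0.00253) or 3 (-0.36, adjusted p = 0.0458), after quantile normalization (0.035) and with array weights (0.00133). Over 15 alternatives the adjusted p of Anxa1 ranged from 0.00133 to 0.197. Hc, the gene of complement C5, was dim, under the lower quartile on 4 of 6 arrays, and did not pass the filter. Lpcat2, which makes platelet-activating factor, was higher in every knockdown mouse (10.10, 9.90 and 9.91 against 9.61, 9.60 and 9.74), and its difference of 0.32 ± 0.09 did not pass (adjusted p = 0.0582). It passed without knockdown mouse 3 (0.35, adjusted p = 0.00857), after quantile normalization (0.0473) or median centring (0.0319), with the dimmest 50% of genes filtered out (0.0495) and with array weights (0.0179), and over 15 alternatives its adjusted p ranged from 0.00857 to 0.219. Of 12 ligand genes and enzymes listed, 11 had a probe set and 9 passed the filter; Camp and Lta4h fell, 7 were not called, and the median difference was -0.14.

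In the coupling of these receptors, the 2 phospholipase C beta genes of the list went opposite ways. Plcb2, the leukocyte form activated by beta-gamma subunits, had values of 10.60, 10.51 and 10.42 in wild type and 9.62, 9.59 and 9.44 in knockdown, and fell by 0.96 ± 0.09 (SE), or 1.94-fold (adjusted p = 0.000413, limma). Plcb3, its broadly expressed relative, had values of 7.65, 7.68 and 7.61 in wild type and 8.01, 7.93 and 8.14 in knockdown. It rose by 0.38 ± 0.10, narrowly past the threshold (adjusted p = 0.0478), and of 15 alternatives 8 lost the call, among them the fits without any 1 wild type mouse (adjusted p = 0.175, 0.158 and 0.206) or knockdown mouse 1 or 2 (0.0796 and 0.0872). Gnai2, the main Gi alpha chain of leukocytes, was not called (-0.07 ± 0.07, adjusted p = 0.58). Pik3cg, the catalytic chain of phosphoinositide 3-kinase gamma, was lower in each knockdown mouse (10.23, 10.11 and 10.01 against 10.24, 10.38 and 10.36), but its difference of -0.21 ± 0.09 did not pass (adjusted p = 0.173). Pik3cg passed with array weights (-0.20, adjusted p = 0.0339, limma), over a range of alternatives up to 0.45. Of 18 coupling genes listed 16 were measured and tested, Plcb2 fell, Plcb3 rose, and the other 14 were not called, with a median difference of -0.11.

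Of the genes that end the signal, Rgs18, a GTPase-activating protein for Gi and Gq alpha chains that is abundant in platelets and their precursors, rose and Grk3, a receptor kinase, fell. Rgs18 had values of 10.62, 10.49 and 10.67 in wild type and 11.24, 11.13 and 11.10 in knockdown, a rise by 0.56 ± 0.08 (SE; adjusted p = 0.00244, limma) that passed in each of 15 alternatives. Grk3 had values of 8.12, 8.36 and 8.19 in wild type and 7.69, 7.56 and 6.76 in knockdown, with mouse 3 far below the others. It fell by 0.89 ± 0.23 (adjusted p = 0.0403), but its adjusted p became 0.118, 0.163 and 0.115 when wild type mouse 1, 2 or 3 was left out and 0.063 when knockdown mouse 2 was. Leaving out knockdown mouse 3 gave -0.60, which passed (adjusted p = 0.00158). Of 11 genes of this group 10 were measured and tested, 8 were not called, and the median difference was 0.10.

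**Figure D4:**
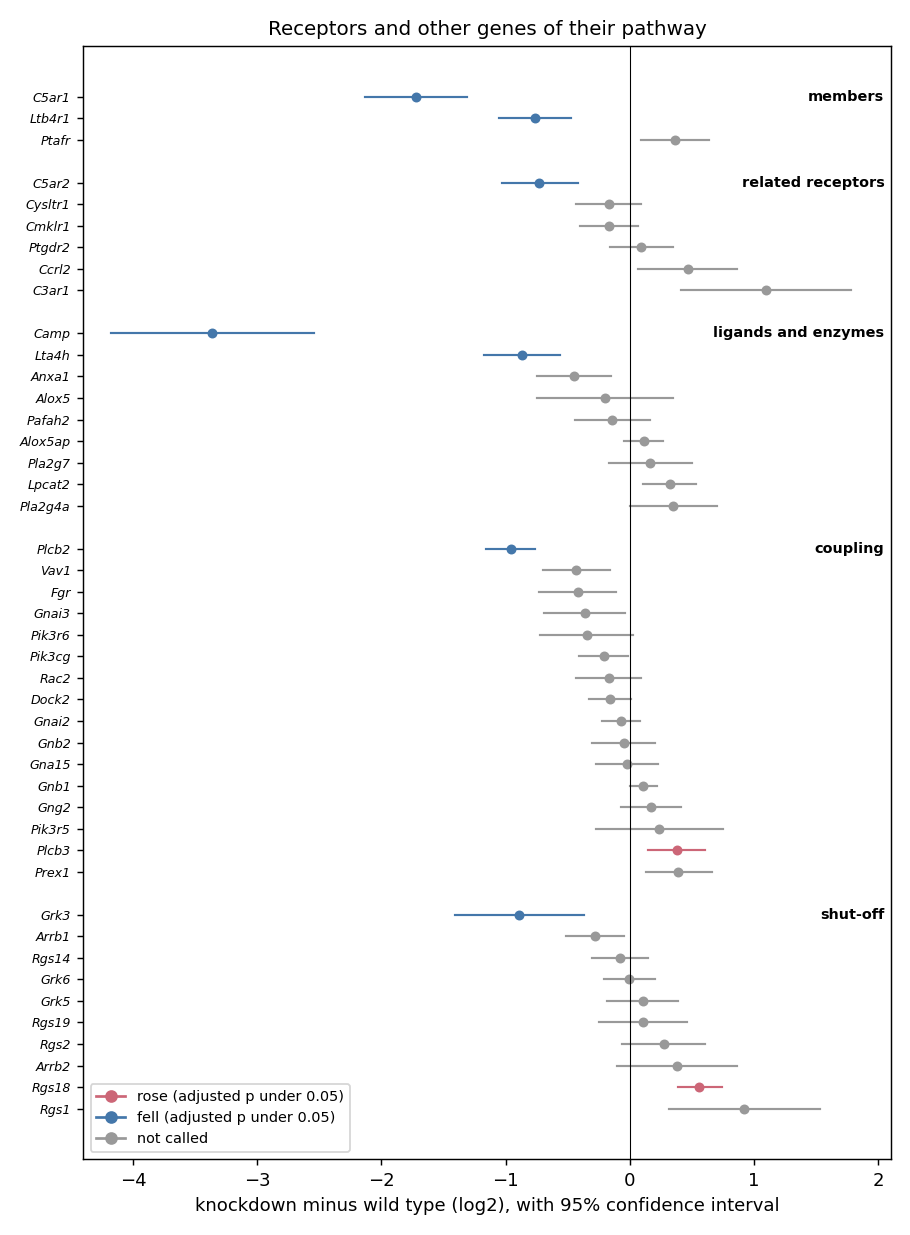
Difference (knockdown minus wild type, log2) with its 95% confidence interval for the 3 receptors and the 41 other pathway genes tested, grouped by role, with genes that rose in red, genes that fell in blue and genes not called in grey. Most of the other genes lie near 0, and Camp at -3.36, Plcb2 at -0.96, Grk3 at -0.89, Lta4h at -0.86 and C5ar2 at -0.73 are the 5 that fell.

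Over the 4 pathway lists together, 41 of 54 genes were tested, 2 rose and 5 fell, which is 17.1% beside 11.6% of all genes, and their median difference was -0.05. Leaving out knockdown mouse 3 gave 7 rises and 12 falls among these 41 genes, and 2397 rises and 1397 falls among all 13956. The falls numbered 3 when wild type mouse 1 or 2 was left out. Only 1 rise, that of Rgs18, was called when either of wild type mice 2 and 3, or either of knockdown mice 1 and 2, was left out.

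Marker lists of the myeloid cells that could carry these receptors differed in how many of their genes changed. Beside these counts and those of the other lineages below, 6.12% of all genes tested rose and 5.48% fell. Of 5 primary granule genes of promyelocytes all 5 fell, and the log2 of their summed signal went from 14.39 to 14.56 in wild type mice to 13.02 to 13.10 in knockdown mice. Of 12 genes of later neutrophils 5 fell and Mmp8 rose, with summed signals of 14.40 to 14.61 against 13.31 to 13.96. Of 6 eosinophil genes 5 fell (11.90 to 12.19 against 8.43 to 9.59), and of 6 basophil and mast cell genes 4 fell and Fcer1a rose (12.41 to 12.87 against 11.08 to 11.42). Of 11 monocyte and macrophage genes 2 fell and 3 rose, with summed signals of 12.76 to 13.01 against 12.65 to 12.74. None of these markers lay under the lower quartile of its array in any mouse. Their part in the falls of C5ar1, Ltb4r1 and C5ar2 was not tested.

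In lineages where these receptors are not typical markers, all 5 megakaryocyte genes rose (9.91 to 10.04 against 11.40 to 11.63), as Rgs18 did, and the part of that lineage in the rise of Rgs18 was not tested. Of 7 dendritic cell genes 3 rose and 2 fell (10.84 to 10.98 against 11.22 to 11.37). The 4 erythroid genes were not called (10.22 to 10.33 against 10.29 to 10.68). Of 4 B lymphoid genes tested 2 fell (10.39 to 10.74 against 10.02 to 10.06 over the 6 measured), and of 4 T and NK genes tested Klrd1 rose (7.93 to 8.18 against 8.20 to 8.39 over the 7 measured), while Cd3g lay under the lower quartile on all 6 arrays.

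The genes whose values over the 6 arrays were most like each receptor's, by Pearson correlation among genes that varied at least 0.5 times as much, are given as a description, since the arrays share the same 2 groups and a gene that differs between them resembles every other such gene. For C5ar1 they were Aldh3b1, an aldehyde dehydrogenase (r = 0.994), Apba1, an adaptor protein (0.992), and Sun2, a protein of the inner nuclear membrane (0.990), which fell by 1.88, 1.15 and 0.87. For Ltb4r1 they were Rnf217, a ubiquitin ligase (0.997), Atp1b1, a subunit of the sodium pump (0.995), and Nrg1, neuregulin (0.994), which fell by 0.88, 1.00 and 1.28. For Ptafr they were Susd2, a membrane protein (0.999), Gpc4, a glypican (0.995), and Ccnd3, cyclin D3 (0.995). Of these Gpc4 rose, by 1.34 (adjusted p = 0.0172), though not without any 1 wild type mouse (adjusted p between 0.055 and 0.0815), while Susd2 (0.44) and Ccnd3 (0.25) were not called. A correlation over 0.95 was reached by 115 of 584 genes for C5ar1, 184 of 4113 for Ltb4r1 and 118 of 9867 for Ptafr. Between C5ar1 and Ltb4r1 themselves r was 0.957 over the 6 arrays.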

How the data were processed

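RNA of sorted marrow cells was measured on 6 arrays, 3 per group. The deposited table holds log2 values per probe set made by the authors; the scale was read from the values, which ran from 1.83 to 13.26. The tools named, per the submitters' processing notes, are limma and Affymetrix Expression Console; for neither is a role given in the sources used here, nor is a normalization method. Arrays have no read depth, so the number of mice limits the precision.

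Of 35556 probe sets 21789 had 1 symbol, 1621 had several and 12146 were not in the platform annotation used; 21698 matched RefSeq (GRCm38.p6) by gene number. A linear model with the group as its only term was fitted per gene (lmFit, then eBayes with its trend option; limma 3.58.1 under R 4.3.3), and p-values were adjusted by Benjamini-Hochberg over all 13956 genes, with a threshold of 0.05. The fit was tested on simulated data. Within-array differences used exact permutation tests (scipy 1.17.1). The members and gene lists were chosen with earlier results of these data known, so no count over them is independent support. Genes named were the members, up to 4 called genes of smallest p per list and direction, fixed partners of each receptor, and the 3 genes most like each member. Ccrl2, Cysltr1, Cysltr2, the Fpr-rs genes and the marker genes singled out were added after their values were seen. The motifs were also chosen then. Alternatives are named in the closing section. Like-numbered mice are different animals, and the labels do not say that the numbers pair them. Their deviations from the group means correlated at 0.293, -0.188 and -0.083. With 3 mice per group these values cannot decide whether like-numbered mice were handled together.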

Additional observations from a re-analysis of the deposited data

How the results depend on the processing

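C5ar1, Ltb4r1, Lta4h, Camp, Plcb2 and Rgs18 kept their direction and their call under all 15 alternatives: each mouse left out, the replicate block, quantile normalization, median centring, no filter or one at 50%, the mean of probe sets, eBayes without trend or robust, and array weights (whose iteration stopped before its tolerance). Second probe sets gave no value, since each member has 1. Ptafr differed by 0.27 to 0.47 with 1 mouse left out, 0.44 after median centring and 0.25 with array weights. With 1 mouse left out, 296 to 2397 genes rose and 367 to 1397 fell; array weights gave 2351 and 1561, and median centring 1433 rises. Of the other pathway genes 1 to 7 rose and 3 to 12 fell with 1 mouse left out; 4 rose after quantile normalization, 6 after median centring, 1 with no filter, and with array weights 8 rose and 13 fell. Alox5 ran from -0.44 to 0.10 with 1 mouse left out, and Gnai2 was 0.0038 after median centring; the cause was not tested. With the replicate block 746 genes rose and 726 fell, 4 other pathway genes rose and 7 fell, C3ar1 and Anxa1 passed (adjusted p = 0.00486 and 0.0358) and Plcb3 did not (0.105); not every mouse correlated best with its own number. Fits that leave out a mouse also have fewer samples.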

Other observations

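C5ar1, C5ar2, Ltb4r1 and Ptafr each had their lowest knockdown value in knockdown mouse 2, whether the gene was lower or higher than in wild type. Of all 13956 genes tested 19.5% were lowest in that mouse among the knockdown mice. Of the 41 pathway genes other than the members, which include C5ar2, 23 were (56.1%). The pattern was noticed in these data and was not tested.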
